A study of Mus musculus with 4 samples.

Results

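Dst encodes dystonin, also called BPAG1, a giant cytoskeletal linker protein of the plakin family. The 177 peaks described here were chosen by position from a list of 30763 eIF4A3 peaks. They are all plus-strand peaks of chromosome 1 that start at or after 33964000 and end at or before 34366500 on the mouse build mm9, the span of Dst with its long isoforms. The gene is ENSMUSG00000026131 in the annotation. It was singled out because many peaks lie there, so the number of peaks is a description and not a finding.

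The list comes from enhanced crosslinking and immunoprecipitation (eCLIP), which maps RNA touched by a protein: RNA is crosslinked to protein by ultraviolet light, pulled down with an antibody and sequenced beside input RNA. The cells were the mouse embryonic stem cell line J1 of strain 129S4/SvJae, kept feeder-free in medium with serum and leukemia inhibitory factor (LIF), and irradiated with 400 mJ/cm2 at 254 nm. There were 2 input libraries, made with no antibody, and 2 eIF4A3 eCLIP libraries, each pair labelled as biological replicates, all of them untreated apart from the irradiation. Each peak carries 1 log2 fold change and 1 −log10 p from the authors, printed here as the authors' values. The list holds no value per library, no read number and no RNA level, so no spread over replicates can be given, and RNA abundance and binding cannot be told apart. Peaks on marker genes of the labelled cell type were not analysed, so that label was not checked here.

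eIF4A3 is the DEAD-box helicase that clamps RNA within the exon junction complex. Splicing leaves this complex on the upstream exon, a short way before each exon-exon junction, and it stays there until translation or other factors remove it. Dystonin joins actin filaments, microtubules and intermediate filaments. Its long forms begin with an actin-binding domain, continue through a plakin domain and a rod of spectrin repeats, and end with a microtubule-binding domain. A short epithelial form, known as BP230, lacks the actin-binding start and ends with a domain that holds intermediate filaments at hemidesmosomes. In mice, loss of the gene causes dystonia musculorum, a sensory neuropathy.

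The peaks were read against the exons of the annotated coding transcript Dst-211, which has 103 exons and 23201 nt and holds more Dst peaks than any other annotated transcript. The annotation is on GRCm38, so the exons were laid on the mm9 peaks by 1 constant shift of -56845 nt from mm9 to GRCm38, found from the peaks within 2 Mb on either side with the Dst peaks left out. At this shift 47 of those 47 neighbouring peaks lay on exons of their own strand. The best shift more than 1 kb away placed 14 of them. The Dst peaks alone gave the same shift, and at it the first base of 20 Dst peaks was the first base of an exon and the last base of 14 was the last base of an exon. Exon numbers below are those of Dst-211, and positions are as in the list on mm9 (it is not stated whether they count from 0 or 1).

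The exons with the strongest sites show where the peaks lay against the place of the exon junction complex. Here the last 60 bases of 6 of these exons are printed 5′ to 3′, read from the transcript's own sequence in GENCODE M21 by exon lengths. Capitals mark the bases 20 to 30 before the junction, with the last base of the exon counted as 1. Exons 6, 8 and 10 held the 3 sites with the highest fold change, exons 21 and 22 held sites among the 5 with the highest −log10 p, and exon 23 held the site with the fourth-highest fold change. The letters are the reference and were not read from these libraries.
Exon 6: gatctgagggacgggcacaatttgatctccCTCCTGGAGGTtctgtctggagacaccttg
Exon 8: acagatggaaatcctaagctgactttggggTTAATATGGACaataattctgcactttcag
Exon 10: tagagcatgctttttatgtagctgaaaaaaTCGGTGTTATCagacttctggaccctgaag
Exon 21: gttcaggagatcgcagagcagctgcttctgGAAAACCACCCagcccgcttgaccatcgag
Exon 22: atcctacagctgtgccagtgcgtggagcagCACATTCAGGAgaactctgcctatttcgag
Exon 23: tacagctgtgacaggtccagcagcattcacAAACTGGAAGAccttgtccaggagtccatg

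Dst peaks lay on exons almost without exception, as did the peaks around the gene. Within 5 Mb on either side, with the Dst peaks left out, 130 of 132 peaks lay on exons of their own strand at the same shift. Of the 177 Dst peaks, 175 (98.9%) had 0.5 or more of their length on a Dst exon, all of them on exons of Dst-211. The Wilson 95% interval was 96.0 to 99.7%. It treats peaks as independent, which they are not, as peaks of 1 transcript share libraries and reads. The 175 peaks fell on 73 of the 103 exons of Dst-211 (70.9%). No plus-strand peak touched the exons of the other genes annotated within Dst, and the minus strand held 0 peaks in the whole span. The first peak, from 34063182 to 34063234, was 7.30-fold and lay on exon 4. The last, from 34364176 to 34364179, was 11.2-fold and lay on exon 103. The nearest plus-strand peaks outside the span ended at 33777022 and started at 34496886, at 4.202-fold and 4.93-fold.

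The fold changes of the Dst peaks were close to those of the list as a whole, while their −log10 p was higher. The median fold change was 6.75, with quartiles of 5.13 and 8.53 and a range from 4.005 to 21.4, against a median of 6.57 over the list. The stringent threshold, at least 8-fold with a p-value of 0.001 or lower, was reached by 57 of the 177 peaks (32.2%) and by 32.3% of the list. The lowest fold change in the list was 4.001 and the lowest −log10 p was 5.01. Every listed peak thus met the limit on p, and only the fold change decided which peaks reached the threshold. The median −log10 p was 20.8 for Dst, with a range from 9.74 to 74.98, and 10.4 for the list. Dst peaks were narrow, with a median width of 23 nt against 32 nt, and 49 of them began at the base after the end of the peak before. Adjoining peaks were not counted over the list, so this number has nothing beside it. Joined within 50 nt the Dst peaks made 102 sites, 43 nt wide at the median. Of these, 60 were single peaks and the most divided held 7. No site reached over more than 1 exon, which the joining distance fixes for peaks on exons, as the introns of Dst-211 have 85 nt or more.

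**Figure D1:**
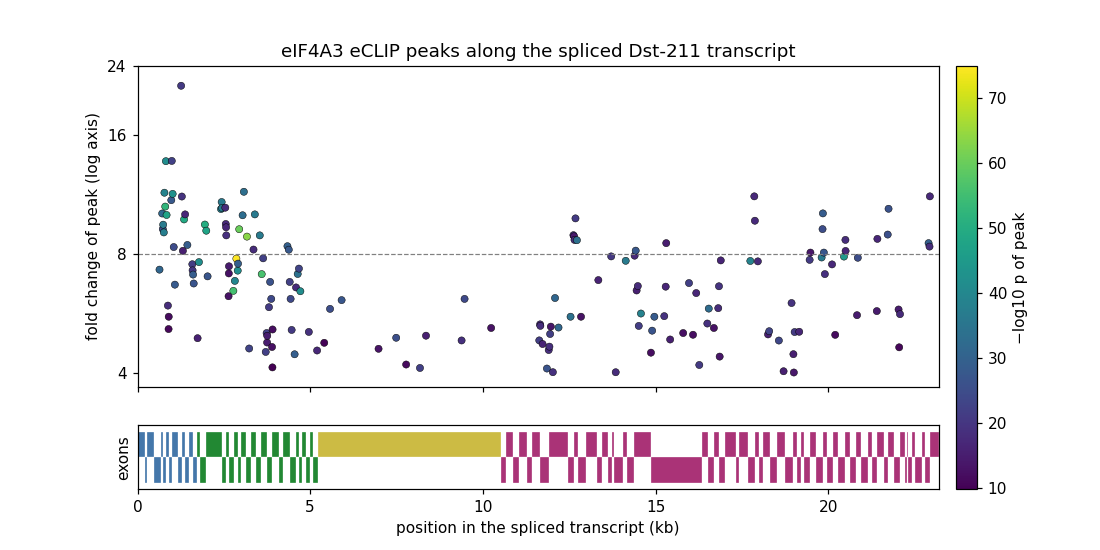
Fold change (log axis) of each of the 175 Dst peaks on exons, without the 2 off the exons, against its place in the spliced transcript Dst-211 in kb, coloured by −log10 p, above a strip of the exons in alternating heights (blue, exons 1 to 14; green, 15 to 38; yellow, 39; purple, 40 to 103); the dashed line is 8-fold. Peaks crowd the first 5 kb, are sparse along the yellow exon of 5292 nt and return beyond it.

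The 10 strongest sites, 5 by fold change and 5 by −log10 p, lay on 10 different exons, all of them before exon 39. This depends on the cut at 5. The next sites by fold change lay on exons 68 and 103, each 11.2-fold against 11.4-fold for the fifth. By −log10 p the next lay on exon 6, at 52.4. The highest fold change, 21.4 with a −log10 p of 20.8, belonged to a peak of 15 nt on exon 10, from 34209140 to 34209154. It covered bases 20 to 6 before the junction, so only its first base is among the capitals printed above. The site on exon 8, from 34174340 to 34174369, held 2 adjoining peaks of 11.0-fold and 13.8-fold. It ran over the last 30 bases of the exon and covered all of the capitals.

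Exon 6 was covered from its first base to its last by 5 adjoining peaks, from 34170778 to 34170867. Their fold changes in transcript order were 9.50, 9.08, 11.4, 10.6 and 13.8. The last 5 bases of the exon thus carried the highest of them. Exon 21 was covered in full by 4 adjoining peaks, from 34221172 to 34221276. One of these, from 34221195 to 34221258, had the highest −log10 p in Dst, 74.98, at 7.79-fold.

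Other strong sites stopped short of the junction. On exon 22 a single peak from 34221903 to 34221966 was 9.25-fold with a −log10 p of 60.03, and it ended at base 33 before the junction, counted as above. The site on exon 23, from 34223042 to 34223115, reached 11.5-fold and ended at base 36. The site on exon 9, from 34191935 to 34192045, reached 11.4-fold and ended at base 57. Of the 10 strongest sites, 5 covered all of the bases 20 to 30, 2 covered part of them and 3 lay outside.

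Along the transcript, stretches with and without peaks followed each other. Exons 1 to 3, the first exons of Dst-211, carried none. The long transcripts Dst-201, Dst-202, Dst-203 and Dst-215 do not have exons 1 to 4 with these edges. Exons 4 to 29 formed the longest run with peaks: all 26 carried at least 1, 67 in all. The next longest run was exons 78 to 85, with 12 peaks on 8 exons. It was followed by 3 runs of 6 exons each, exons 45 to 50 with 19 peaks, exons 59 to 64 with 25 and exons 90 to 95 with 7. Some exons of these runs held very few covered bases. The fewest were 1 nt on exon 79, 3 nt on exon 83, 4 nt on exon 29 and 5 nt on exon 85. The longest runs without peaks were exons 96 to 101, of 597 nt, and exons 40 to 44, of 903 nt. Exons 1 to 3 and exons 65 to 67, of 464 and 654 nt, came next. Of the 30 exons without a peak the median length was 150 nt and the median GC content 48.4%. For the 73 with a peak these were 156 nt and 50.8%.

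**Figure D2:**
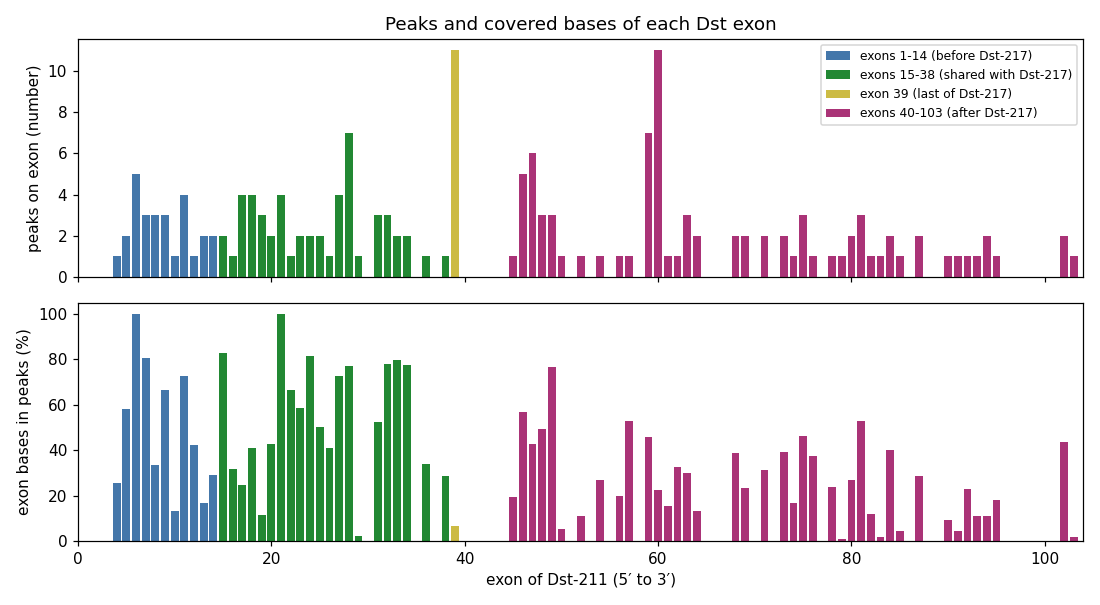
Number of peaks on each exon of Dst-211 (upper bars) and percent of its bases inside peaks (lower bars) by exon number, coloured by stretch. Exons 6 and 21 are covered in full, exons 39 and 60 hold 11 peaks each, and exons 40 to 44 and 96 to 101 are empty.

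Peaks lay at different distances from 3 annotated starts of the gene. The first exons of Dst-211, of the long transcript Dst-201 and of the short coding transcript Dst-217 held 0 peaks each. In Dst-211 the first peak was the one on exon 4, after 3 empty exons. Only these 3 starts were compared. Near the start of Dst-201 lay a peak of 6 nt, from 34068581 to 34068586, at 4.03-fold. Its first base was 89 nt upstream of the first annotated base of Dst-201, and the nearest annotated exon after it, the first of Dst-202, was 72 nt away. It was 141 nt downstream of a start that RefSeq gives for Dst on GRCm38.p6. This peak was 1 of the 2 Dst peaks off the GENCODE exons. The other, from 34134084 to 34134212, was the widest Dst peak at 129 nt and measured 6.20-fold. It lay in an intron, 8875 nt before the next annotated exon. The first peak after the start of Dst-217 lay on exon 15, 299 nt downstream in the genome. It ran from 34217474 to 34217482, at 4.89-fold with a −log10 p of 15.8. The peak adjoining it, from 34217483 to 34217551, was 7.63-fold with a −log10 p of 41.8.

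The short transcript Dst-217 has a first exon of its own, shares exons 15 to 39 with Dst-211 (exon 24 with a different start) and ends with exon 39. These limits divide the gene into 4 stretches. The 5′ stretch, exons 1 to 14, lies upstream of Dst-217. Its peaks had the highest fold changes, with a median of 9.26 over 27 peaks and a range from 5.16 to 21.4. The stringent threshold was reached by 18 of the 27 (66.7%), beside 32.3% of the list. Exons 15 to 38, present in Dst-211 and Dst-217, held 52 peaks with a median of 7.13-fold, of which 18 (34.6%) reached the threshold. Exons 40 to 103, downstream of the end of Dst-217, held 85 peaks with a median of 5.83-fold, of which 21 (24.7%) reached it. Exon 39 held 11 peaks with a median of 4.91-fold, and 0 of them reached the threshold, since the highest was 6.16-fold. The ranges of the 4 stretches overlapped. Within exons 40 to 103 the fold changes fell and rose again more than once. The highest was 5.30 on exon 46, 9.85 on exon 49 and 4.83 on exon 73. It was 10.1 on exon 81, 5.79 on exon 94 and 11.2 on exon 103.

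The share of exon bases inside peaks followed another order. It was 45.4% in exons 15 to 38 and 33.7% in exons 1 to 14. In exons 40 to 103 it was 18.9%, and in exon 39 it was 6.78%. The share of exons with a peak was 21 of 24 in exons 15 to 38, 11 of 14 in exons 1 to 14 and 40 of 64 in exons 40 to 103. The median −log10 p was 27.8 in exons 1 to 14, 24.2 in exons 15 to 38, 18.8 in exon 39 and 18.2 in exons 40 to 103. Over the 177 peaks in transcript order, position had a Spearman rho of -0.26 with fold change and -0.30 with −log10 p. These are descriptions, as peaks of 1 transcript share libraries and reads. The fall in fold change was not steady, given the rises within exons 40 to 103. Whether read coverage of the input also varied along the transcript was not tested.

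**Figure D3:**
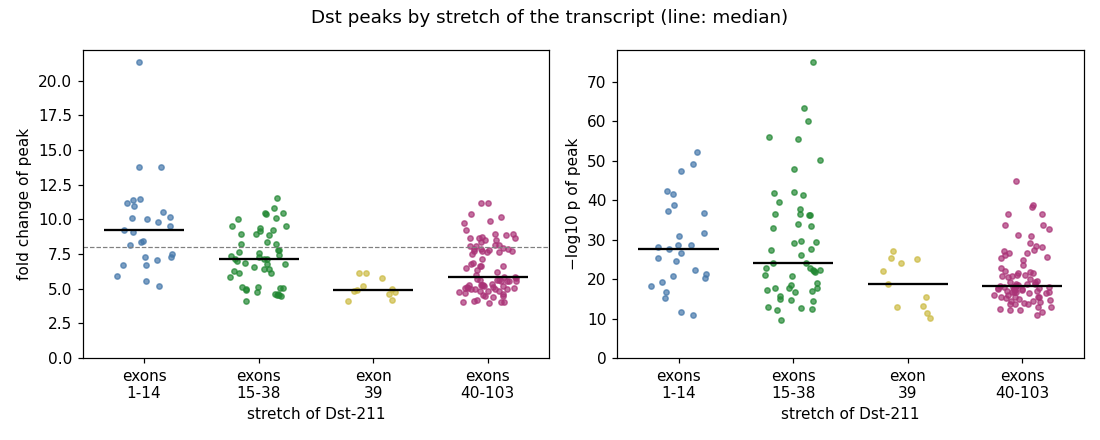
Fold change (left) and −log10 p (right) of the 175 Dst peaks on exons in the 4 stretches of Dst-211, the 2 peaks off the exons being in no stretch; each point is a peak, the black line is the median and the dashed line is 8-fold. Medians of fold change were 9.26 in exons 1 to 14, 7.13 in exons 15 to 38, 4.91 in exon 39 and 5.83 in exons 40 to 103.

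Long exons carried peaks far from any junction. Exon 39 measures 5292 nt, and its 11 peaks covered 359 nt, or 2.08 peaks per kb of exon. For all 103 exons together the value was 7.54 per kb. Its peaks were spread over its length and ranged from 4.11-fold to 6.16-fold. The 5′-most lay from 34244997 to 34244998, at 4.76-fold. The 3′-most, from 34249824 to 34249836, was 5.19-fold and ended 272 nt before the last base of the exon. The longest empty stretch in exon 39 was 1037 nt. Exon 60, of 1472 nt, also held 11 peaks, at 7.47 per kb and a median of 5.55-fold.

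The other exons of 400 nt or more were exons 17, 47 and 59, with 4, 6 and 7 peaks. On exon 17, of 463 nt, the peaks lay at both ends and left bases 77 to 425 empty, and their median was 9.79-fold. Exon 47, of 546 nt, held the widest site of Dst, of 305 nt from 34257715 to 34258019, with 6 peaks from 4.01-fold to 6.19-fold. The site lay in the first part of the exon. Its peaks covered 234 nt, and the last 241 bases of the exon held none. By length class, 34.7% of the bases were inside peaks in the 17 exons under 100 nt and 32.95% in the 28 exons of 100 to under 150 nt. The values were 26.5% in the 32 exons of 150 to under 200 nt, 13.8% in the 21 exons of 200 to under 400 nt and 15.3% in the 5 exons of 400 nt or more.

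Exons that only some long transcripts use were looked at after the values were seen, and the count depended on which transcripts were compared. Between exons 5 and 102, 9 exons of Dst-211 are left out, or have other edges, in at least 1 of the long transcripts Dst-201, Dst-202 and Dst-203. Of these 9, only exon 39 carried peaks. Exons 40, 41, 42 and 43, which Dst-202 leaves out together with exon 39, have 150, 216, 150 and 234 nt and carried none. Exons 65, 97, 99 and 101, with 327, 18, 72 and 111 nt, carried none either. Of the 89 exons common to these 4 transcripts, 70 (78.7%) carried a peak. Dst-215, a coding transcript of 84 exons, was not among them: it starts at the same base as Dst-217 and so lacks exons 5 to 14. With it counted too, 11 of 19 exons left out (57.9%) and 60 of 79 common exons (75.9%) carried a peak. Without Dst-215, the median lengths of the 2 sets of exons were 150 and 155 nt, and the median GC contents 44.4% and 50.0%. The list does not give how much of the RNA holds each exon, so the part of exon use in this difference was not tested.

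Coverage of Dst exons was also read by distance from the exon edges. Among the 84 inner exons of at least 100 nt, 39 (46.4%) had a peak within bases 20 to 30 before the exon end. In the matching bases 20 to 30 after the exon start, 20 (23.8%) had one, and 9 exons had both. Position by position, coverage before the exon end was highest at bases 29, 30, 32 and 34 alike, with 35 of the 84 exons (41.7%), within a broad plateau, and lowest at the last base, with 10 (11.9%). After the exon start it stayed between 17 exons (20.2%, at bases 19, 22 and 23) and 26 exons (31.0%, at bases 3 to 5). At base 100 before the end it was 16 exons (19.0%). No test was made, since exons of 1 transcript share libraries and reads.

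**Figure D4:**
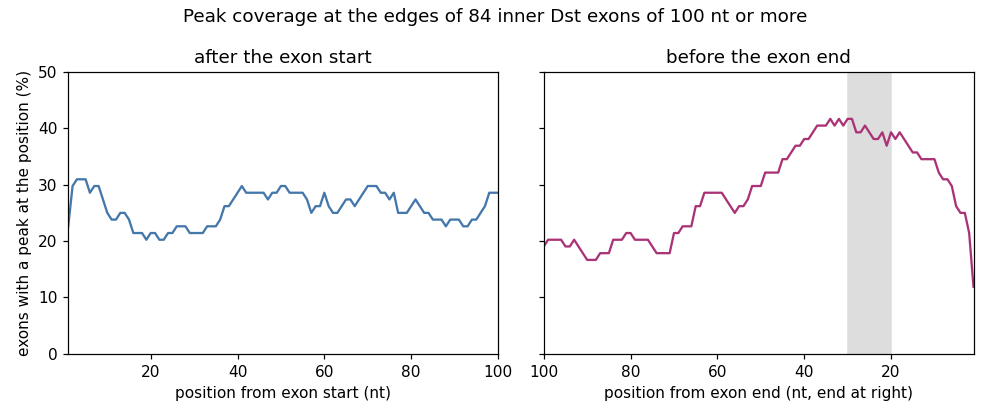
Percent of the 84 inner Dst exons of at least 100 nt that have a peak at each of the 100 bases after the exon start (left, blue) and before the exon end (right, purple, the junction at the right edge); the grey band marks bases 20 to 30. Coverage is at most 41.7%, at bases 29, 30, 32 and 34 before the end, and falls to 11.9% at the last base, while after the start it stays between 20.2% and 31.0%.

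Counted over all exons of at least 30 nt that end in a junction, 45 of 101 (44.6%) had a peak within bases 20 to 30 before their end, and in 35 those bases were covered in full. The share was 17 of 24 in exons 15 to 38, 7 of 14 in exons 1 to 14 and 21 of 62 in exons 40 to 103. Exon 39 had none there. Of the 174 peaks on exons that end in a junction, 50 (28.7%) overlapped those bases and 30 covered all of them. Of the 99 sites on such exons, 45 (45.5%) overlapped them. The middle of a peak was a median of 79.8 nt from the exon end, with quartiles of 26.8 and 157.8 nt. Without the exons of 400 nt or more, a choice made after the values were seen, the median over 135 peaks was 51 nt. Peaks also met the other edge: 40 of 175 began within 10 nt of an exon start, and 51 of 174 ended within 10 nt of an exon end.

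Dst was set beside 10 genes of the plakin family and of its partners at hemidesmosomes and microtubules. Each gene was placed by a shift found in the same way from neighbouring peaks. The shift met the criterion for 8 of the 10, and Dsp (desmoplakin) and Cd151 (a tetraspanin of hemidesmosomes) could not be placed. Peaks were present in 3 of the 8. Macf1, the closest relative of Dst and also a linker of actin and microtubules, held 148 peaks with a median of 6.34-fold and a highest of 23.2-fold. Of these, 147 lay on its exons and 38 (25.7%) reached the stringent threshold, beside 32.3% of the list. Plec (plectin, which anchors intermediate filaments) held 47 peaks, all on exons, with a median of 6.05-fold, and 10 reached the threshold.

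Per length of exon in coding transcripts, Dst had 5.08 peaks per kb, Macf1 4.86 and Plec 2.66. For Dst this length was 34416 nt, whereas the 7.54 per kb above was for the exons of Dst-211 alone. Dst was singled out for its many peaks, so its place in this order is not a finding. Exons with a peak were 73 of 103 in Dst, 63 of 98 in Macf1 and 25 of 33 in Plec, each in its coding transcript with the most peaks. A peak within bases 20 to 30 before the junction was found on 45 of 101 exons in Dst, 41 of 95 in Macf1 and 18 of 31 in Plec. Differences between these genes were not tested, as the list has no value per library. Itga6, the integrin alpha chain of hemidesmosomes, held 2 peaks with fold changes up to 7.82. Itgb4 (its beta chain), Col17a1 (a hemidesmosome collagen), Evpl and Ppl (the plakins envoplakin and periplakin) and Mapre1 (a microtubule end-binding protein) had 0 peaks in the list. Because the list is filtered and has no read numbers, 0 peaks does not show that a gene is unbound or not expressed.

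**Figure D5:**
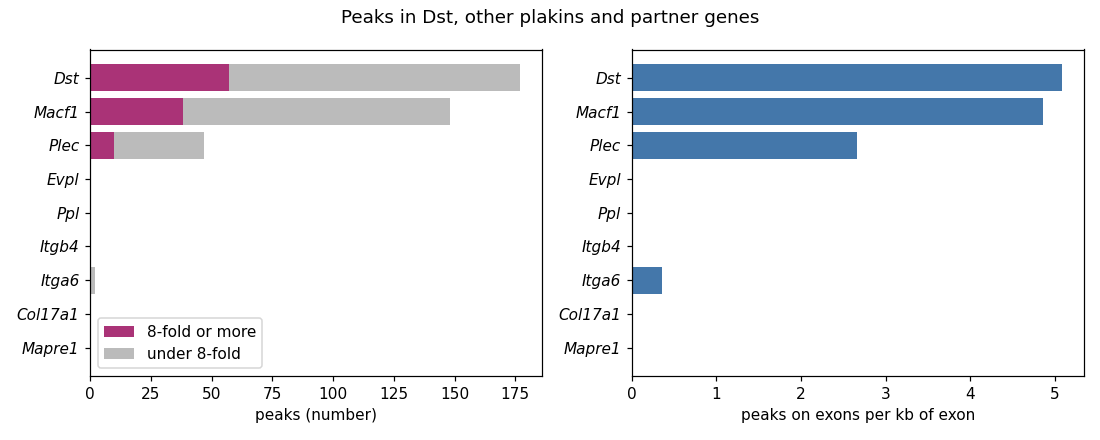
Number of peaks (left; purple, at least 8-fold; grey, under 8-fold) and peaks on exons per kb of exon in coding transcripts (right) for Dst and the 8 genes of the list that could be placed. Dst, Macf1 and Plec hold 177, 148 and 47 peaks, Itga6 holds 2 and the other 5 genes hold 0.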

How the data were processed

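The data were 1 deposited peak list for 4 eCLIP libraries, 2 input and 2 eIF4A3, with no column of per-library values. Per the submitters' processing notes, cutadapt 1.18, STAR 2.6.1b and build mm9 were used. Not given in the sources used here are the peak caller, the test, the direction of the ratio and any pooling of replicates. The log2 fold change and the −log10 p of each peak are the authors' deposited values, and fold changes are 2 to the power of the former. Read depth is unknown.

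Members were taken by position. The members, the gene list and the thresholds were chosen with earlier results of these data known. Exons came from GENCODE M21 (GRCm38), laid on the peaks by 1 shift per gene, scanned to 3 Mb either way. A shift was used where it placed at least 2 times as many neighbouring peaks on exons as any shift over 1 kb away. A peak was on an exon with 0.5 or more of its bases there. Sites named are the 5 highest by fold change, the 5 highest by −log10 p, the first, the last and the widest site, and those nearest to annotated starts, with the longest runs of exons. Runs of equal length were all named. Other regions were chosen after their values were seen. The shift finder was tested on simulated data: 20 of 20 planted shifts were found to within 10 nt, with a largest error of 4 nt. Each run used 50 planted peaks and scanned a narrower range than 3 Mb. The simulation thus did not test the full scan or genes with fewer neighbouring peaks. No test between samples was possible. Python 3.11.15, numpy 2.4.6, pandas 2.3.3, scipy 1.17.1 and matplotlib 3.10.9 were used.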

Additional observations from a re-analysis of the deposited data

How the results depend on the processing

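No paired analysis was possible because values per library are not in the list, which also kept replicates from being left out in turn. The share of Dst peaks past the threshold, 32.2%, was 0.565% at 16-fold with p at most 1e-05, since 1 peak is that high. It was 32.2% with p at most 1e-10 and 35.3% over sites. The limit of 1e-10 could not change the share, as every Dst peak of at least 8-fold had a −log10 p of 13.8 or more. Exons with a peak numbered 73, or 34 when only peaks past the threshold were counted, which are fewer by construction. The median distance to the exon end, 79.8 nt, was 51 nt without exons of 400 nt or more, a setting added after the data were seen. The share of peaks that overlap bases 20 to 30 before the exon end, 28.7%, was 45.5% over sites. The count of exons with a peak among those left out of some long transcripts, 1, was 11 with Dst-215 counted too. Both settings were also added after the data were seen. The median distance lay between 72.5 and 79.8 nt in the other settings. The number of sites lay between 87 and 128 for gaps of 100 to 0 nt, the share of peaks on exons between 97.7% and 98.9%, and both correlations with position stayed below 0. Read depth is not given, so what it limits cannot be stated.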
